A study of Arabidopsis thaliana with 12 samples.

Results

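In 7-day-old Arabidopsis thaliana seedlings, 225 nuclear genes had low transcript levels whenever the histone variant H3.3 was knocked down. This held both in otherwise wild-type plants and in plants that also carried the h2a.z mutation. With that mutation alone they stayed within a set band around the wild-type level, which does not mean unchanged. The genes were chosen by their measured levels among 14407 nuclear genes with a Col mean of at least 5 TPM (abundance corrected for transcript length and scaled to a fixed total), of 23893 genes in the table. For each genotype, d was the log2 ratio of its mean TPM plus 1 to the Col mean TPM plus 1. A member had d of at most -0.8 in h3.3kd, d of at most -0.8 in h3.3kd;h2a.z and d between -0.5 and 0.5 in h2a.z. The H3.3 genes HTR4 and HTR8 also fell within these limits of d in h3.3kd and were left out. The set includes the anthocyanin regulators PAP1 and MYB90, the glucosinolate regulators MYB28 and MYB29, the defence gene AZI1, gibberellin and brassinosteroid enzymes and the stomatal regulator SPCH.

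The libraries were made from whole seedlings of 4 genotypes, kept at 21 °C in short days, with 3 libraries each. The mutant genotypes were h3.3kd, a knockdown of H3.3 whose label names the line h3.3kd-1, the double mutant h3.3kd;h2a.z, which carries that line and the H2A.Z mutation, and h2a.z, a mutant of H2A.Z. All were set against the wild type Col. A single knockdown line was used in both knockdown genotypes. Neither the h2a.z alleles nor the way H3.3 was knocked down is stated in the labels. They also do not say whether the libraries of a genotype were grown apart, so the spread that p-values measure may be technical. In whole seedlings, fewer cells of a type and less RNA per cell cannot be told apart.

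H3.3 is a variant of histone H3 that is placed in chromatin outside DNA replication, mostly over the bodies of active genes and at regulatory regions. H2A.Z replaces histone H2A mainly around the first nucleosomes of genes and, in plants, along the bodies of many genes that respond to the environment. The series asks how the 2 variants together shape growth responses to warmth; these libraries come from unwarmed plants.

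Of the H3.3 genes, HTR4 and HTR8 were far below Col in both knockdown genotypes, and HTR5 was lower by less. HTR4 averaged 36.2 ± 1.73 TPM in h3.3kd plants and 35.4 ± 5.24 TPM in the double mutant, against 386 ± 3.41 TPM in Col (SD, n = 3 each). HTR8 averaged 12.8 ± 0.846 and 10.2 ± 2.63 TPM in these genotypes, against 187 ± 4.35 TPM in Col. The third H3.3 gene, HTR5, averaged 207 ± 2 TPM in h3.3kd plants and 186 ± 17.2 TPM in the double mutant, against 249.9 ± 12 TPM in Col. The H2A.Z genes HTA8, HTA9 and HTA11 were lower in both genotypes that carry the h2a.z mutation, but HTA9 was less reduced in the double mutant, at 60.5 ± 7 TPM, against 32.8 ± 4.06 TPM in h2a.z and 161 ± 8.5 TPM in Col. Total read counts are not given; the steps between low values put h2a.z replicate 1 at 0.26 times the depth of Col replicate 1 and the other libraries between 0.992 and 1.54 times, so single values of low genes are least exact in that library.

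Together the 225 members summed to 5320 to 5380 TPM in the h3.3kd libraries, 4822 to 5107 TPM in those of the double mutant and 11838 to 12870 TPM in those of h2a.z, against 11789 to 12366 TPM in the Col libraries. The median member stood at d = -1.09 in h3.3kd, or 46.9% of Col on that scale, and at d = -1.28 in the double mutant, or 41.3% of Col, while the medians over the expressed nuclear genes were -0.12 and -0.08. In h2a.z the median member was at -0.06, with 94 members above 0 and 131 below. The rule fixes these directions, so they describe the set and test nothing. By limma, which fits a linear model to every gene and shares information on the spread between genes, all 225 passed a Benjamini-Hochberg adjusted p below 0.05 as lower in each knockdown genotype. Over all 18851 genes tested that holds for 26.7% in h3.3kd plants and 30.7% in the double mutant, and genes called higher made up 9.12% and 20.3%. Some members also differed from Col in h2a.z by limma, in both directions. NAS4 was lower there, at a log2 difference of -0.41 (adjusted p = 0.000132), and AT1G13650 higher, at 0.49 (adjusted p = 0.00777). In 220 of 225 members all 6 libraries with the knockdown lay below all 6 without it, which also holds for 15% of the expressed nuclear genes. The exceptions were GASA6, NADP-ME1, AT4G22560, AT1G32920 and PIP5K5.

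**Figure D1:**
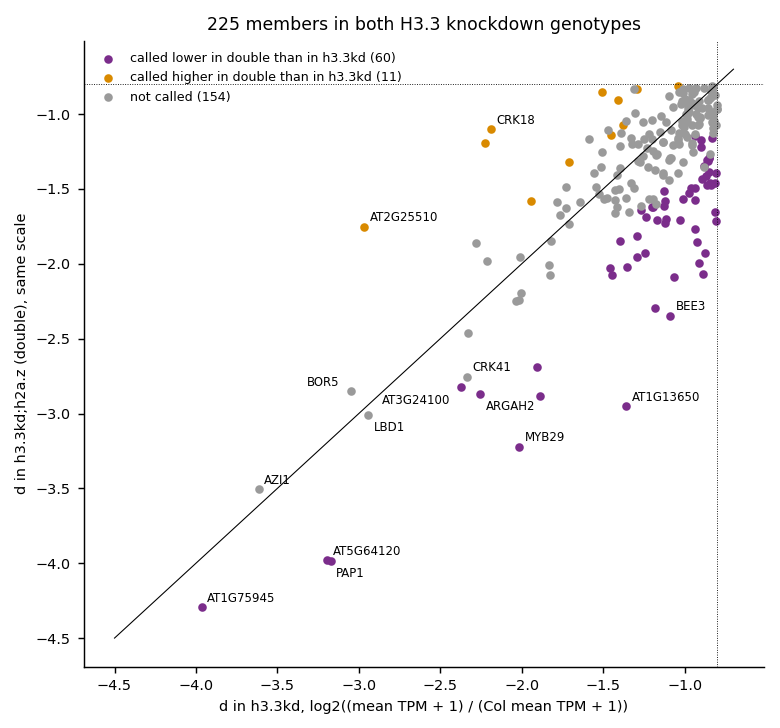
Each point is 1 of the 225 members, with d in h3.3kd on the horizontal axis and d in the double mutant on the vertical axis; colours mark members called lower (60) or higher (11) in the double mutant than in h3.3kd by limma, the diagonal marks equal values, and the dotted lines mark the limit of -0.8. Both axes share the Col libraries and the rule cuts off everything above and right of the dotted lines; 156 members lie below the diagonal and 69 above it.

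Reductions reached at least 2-fold on the d scale in both knockdown genotypes in 124 members and d of -2 or lower in both in 14. The Col level of the members ran from 5.06 to 2172 TPM with a median of 19 TPM, close to the 19.9 TPM of all expressed nuclear genes, and 24 members were at 100 TPM or more. Just inside the limit on h3.3kd lay CBF2, AT5G02950 and AT1G72900, all at d = -0.80, and just outside AT5G42146 (d = -0.80 when rounded, -0.797 as computed), AT3G05600 and AT5G38980 (both -0.79). On the limit of the double mutant the nearest members were TINY2 and AT5G54130 (both -0.81) and IP5PII (-0.82), and the nearest genes left out were AT1G62370, KAT1 and AT1G68620 (all -0.79). On the low side of the h2a.z band NADP-ME1 (-0.50), AT2G46940 (-0.49) and CRK41 (-0.48) were in, and AT5G38010 (-0.50), AT2G39850 (-0.52) and PP2-A5 (-0.52) were out. On its high side AT2G15960, RD22 and AT5G45840 (all 0.49) were in, and AT5G03545 (0.50), LOX4 (0.51) and AT3G26590 (0.52) were out. The median over all tested genes was itself -0.11 (log2) in h3.3kd, and 0.00 once TPM were rescaled by median ratios. With rescaled values the rule found 160 genes, 149 of them among the 225.

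The 10 members with the lowest mean d ran in the knockdown genotypes from nearly silent genes, such as AT1G75945, to AT5G64120, which kept a moderate level. The gene with the lowest mean d, AT1G75945, encodes an uncharacterized protein; it had 0.807, 0.692 and 1.15 TPM in h3.3kd, 0.252, 0.657 and 0.596 TPM in the double mutant, 28.5, 30.2 and 30 TPM in h2a.z, and 30.4, 26.9 and 28 TPM in Col. In both knockdown genotypes it stayed close to 1 TPM or under it, and neither group overlapped h2a.z or Col. AT5G64120, a class III peroxidase gene of the cell wall family, had 29.6, 27 and 25.8 TPM in h3.3kd, 13.6, 13.1 and 19.8 TPM in the double mutant, 246, 275 and 304 TPM in h2a.z, and 266, 256 and 256 TPM in Col. All 6 knockdown libraries were under 30 TPM and all 6 others above 240 TPM. AZI1, a lipid-transfer-like protein gene that primes systemic defence, had 8.69, 10.8 and 12.3 TPM in h3.3kd, 9.8, 12.3 and 12.5 TPM in the double mutant, 114, 139 and 149.8 TPM in h2a.z, and 148, 137 and 138 TPM in Col. The h3.3kd and double mutant libraries overlapped one another and none came near the other 6.

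LBD1, a LOB-domain transcription factor gene, had 1.15, 0.856 and 0.879 TPM in h3.3kd, 0.576, 1.63 and 0.425 TPM in the double mutant, 11.7, 9.96 and 13.7 TPM in h2a.z, and 8.69, 12.6 and 21 TPM in Col. Its Col libraries varied, with replicate 3 the highest, and the knockdown libraries were still all below them. BOR5, of the borate transporter family, had 0.74, 0.697 and 0.769 TPM in h3.3kd, 0.947, 1.38 and 0.656 TPM in the double mutant, 12.6, 16.5 and 21.3 TPM in h2a.z, and 14.5, 14.6 and 11 TPM in Col. CRK41, a cysteine-rich receptor-like kinase gene, had 0.971, 0.98 and 0.817 TPM in h3.3kd, 0.31, 0.496 and 0.506 TPM in the double mutant, 5.16, 4.43 and 8.3 TPM in h2a.z, and 6.17, 5.88 and 14 TPM in Col. In CRK41 too Col replicate 3 was the highest; in 5 of the 225 members that library was at least 1.5 times the next Col library, and in none was Col replicate 1 or 2. ARGAH2, an arginase gene, had 17.7, 15.9 and 14.8 TPM in h3.3kd, 10.4, 11.2 and 9.1 TPM in the double mutant, 67.7, 69 and 59.8 TPM in h2a.z, and 88.7, 78.3 and 75.8 TPM in Col. AT3G24100, annotated to an uncharacterized family named SERF, had 7.94, 11.4 and 8.94 TPM in h3.3kd, 7.06, 6.81 and 5.96 TPM in the double mutant, 46.6, 38.4 and 49.8 TPM in h2a.z, and 57.6, 54.3 and 46.9 TPM in Col. For ARGAH2 and AT3G24100 the double mutant libraries all lay below those of h3.3kd.

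**Figure D2:**
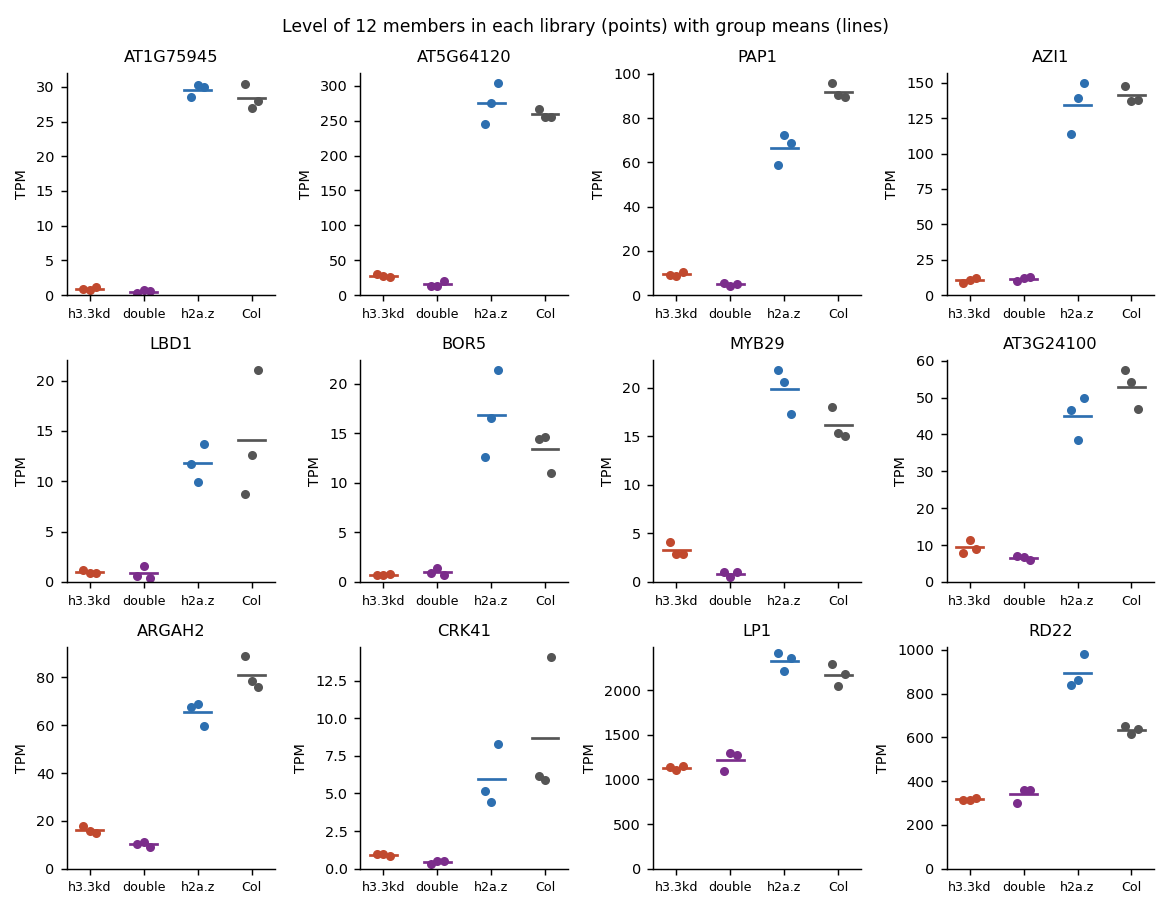
Level in TPM (vertical axes, linear and from 0) of 12 members, the 10 with the lowest mean d and the 2 most abundant, in the 3 libraries (points) of h3.3kd, the double mutant, h2a.z and Col, with lines at the group means. In each panel all points of h3.3kd and the double mutant lie below all points of h2a.z and Col.

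The sequences upstream of 3 of the lowest members are shown because promoters of the set differ from other promoters in how often they hold a TATA box, the sequence that positions the transcription machinery close before the start. Each is the 250 bases before the annotated transcript start, from RefSeq on TAIR10.1, read along the gene's strand, with TATAAA on that strand in capitals. AT5G64120 (chromosome 5, minus strand) holds it 30 bases before the start. AZI1 (chromosome 4, minus strand) holds it 43 and 192 bases before the start. PAP1 (chromosome 1, minus strand) holds none in this window.
AT5G64120: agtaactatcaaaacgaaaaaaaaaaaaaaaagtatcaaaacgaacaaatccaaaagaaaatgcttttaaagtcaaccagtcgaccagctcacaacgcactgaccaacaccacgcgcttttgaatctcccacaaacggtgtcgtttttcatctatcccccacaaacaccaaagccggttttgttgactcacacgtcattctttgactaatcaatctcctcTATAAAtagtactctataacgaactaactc
AZI1: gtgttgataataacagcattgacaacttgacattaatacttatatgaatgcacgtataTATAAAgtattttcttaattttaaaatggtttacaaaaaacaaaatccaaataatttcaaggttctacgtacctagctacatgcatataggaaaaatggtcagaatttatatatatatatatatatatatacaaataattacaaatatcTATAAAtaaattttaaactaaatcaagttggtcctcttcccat
PAP1: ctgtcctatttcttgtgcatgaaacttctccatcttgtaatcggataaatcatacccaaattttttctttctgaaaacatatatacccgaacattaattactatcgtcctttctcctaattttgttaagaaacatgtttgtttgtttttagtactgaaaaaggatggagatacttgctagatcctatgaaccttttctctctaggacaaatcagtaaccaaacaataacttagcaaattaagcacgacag

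Over windows of 300 bases, from 250 before to 50 after the start, TATAAA on either strand was in 61.8% of the 225 promoters and in 51.2% of the 14407 promoters of expressed nuclear genes. Counted only on the gene's strand and beginning 20 to 50 bases before the start, it was in 11.6% of the members and 7.84% of all. The site II element TGGGCC, common in promoters of housekeeping genes for translation and cell division, was in 8% of member promoters against 20.4% of all, and in none of the sequences printed. The telo-box AAACCCTA was in 3.56% against 5.5%. Among stress elements, the G-box CACGTG was in 9.78% against 9.42% and the longer W-box TTGACC in 15.1% against 14%. The DRE core CCGAC, which is also part of the longer ACCGAC, was in 14.2% against 16.5%. The heat shock element GAANNTTC, where N is any base, was in 13.3% against 11%. The evening element AAATATCT was in 8.44% against 5.95%. A match of letters is a description and does not show that a factor binds there. Motifs were counted on both strands and the G-box contains the ACGTG core that was also searched, found in 32.9% against 28.2%.

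Members were short genes with few introns. Their median annotated exonic length was 1400 bases, against 1754 for expressed nuclear genes, and 64 of 225 (28.4%) had no annotated intron, against 13.2%. An uncharacterized product was annotated for 25 members (11.1%), against 4.55%. The differences in length, introns and both motifs had the same direction among genes with Col levels of 5 to 20, 20 to 100 and at least 100 TPM. Other sets chosen by the same limits shared them in part. The 307 genes lowered in the double mutant but above the limit in h3.3kd had 26.4% without introns, 59.6% with TATAAA and 7.49% with TGGGCC. Genes lowered in h3.3kd but above the limit in the double mutant, 73 in number, had 19.2%, 57.5% and 12.3%. The 34 genes raised by the same limits in both knockdown genotypes had 23.5% without introns, 47.1% with TATAAA, below the share of all expressed genes, and 11.8% with TGGGCC. Median exonic length in these sets was 1510, 1494 and 1382.5 bases in the same order, so short length was not particular to the members. Uncharacterized products made up 10.4%, 4.11% and 2.94% of them. No test was made of these shares and lengths.

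**Figure D3:**
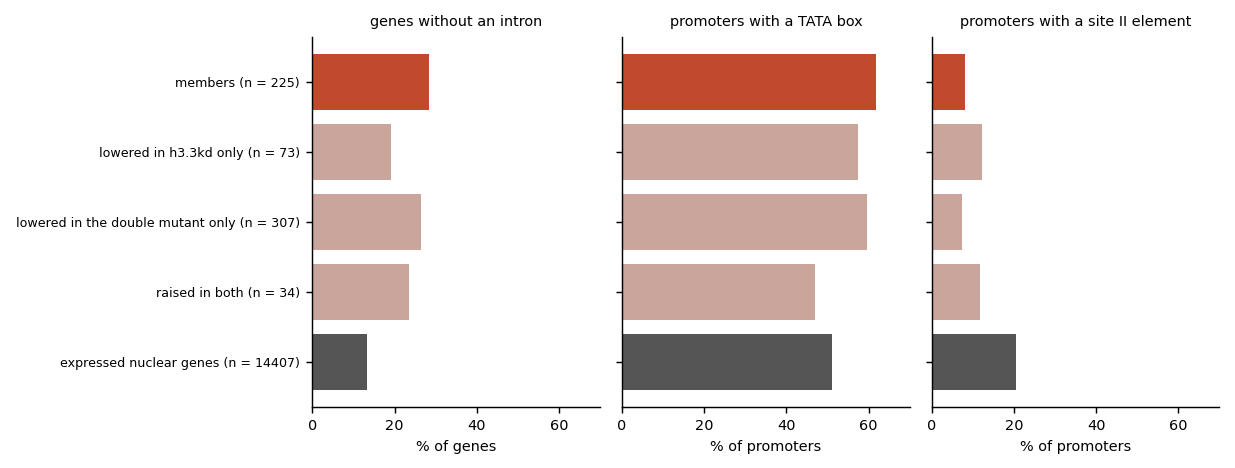
Share of genes without an annotated intron and of promoters with TATAAA or TGGGCC (horizontal axes, percent) in the 225 members, in 3 other sets chosen by the same limits and in all expressed nuclear genes. The members differ from all expressed genes in each panel, with 28.4% against 13.2% without introns, the set lowered in the double mutant only is close to the members, and the set lowered in h3.3kd only lies between at 19.2%.

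Among pigment genes, the low members were 2 activators and 3 late enzymes or carriers. PAP1, a MYB factor that switches on anthocyanin synthesis, had 9.24, 8.43 and 10.2 TPM in h3.3kd, 5.56, 4.02 and 5.01 TPM in the double mutant, 58.5, 72.2 and 68.7 TPM in h2a.z, and 95.7, 90.3 and 89.4 TPM in Col. All double mutant libraries lay below those of h3.3kd, and these below every h2a.z and Col library; h2a.z was itself lower than Col, at d = -0.46. MYB90, its close paralogue, had 4.15, 5.57 and 4.88 TPM in h3.3kd, 2.22, 1.79 and 1.81 TPM in the double mutant, 21.7, 21 and 27.8 TPM in h2a.z, and 17.7, 22 and 22.6 TPM in Col. Double mutant libraries again lay below those of h3.3kd, and h2a.z overlapped Col. PAP1 and MYB90 are alike in sequence and can share reads, so the split between them is uncertain.

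Their known targets were lower by less. GSTF12, the glutathione transferase that carries anthocyanin to the vacuole, averaged 10.7 ± 0.532 TPM in h3.3kd plants and 9.59 ± 0.513 TPM in the double mutant, against 30.5 ± 1.18 TPM in Col (SD, n = 3 each). DFR, which commits the pathway to anthocyanins, averaged 7.83 ± 0.399 and 5.02 ± 1.82 TPM, against 16.3 ± 2.51 TPM in Col. LDOX, the next enzyme, averaged 11.5 ± 1.2 and 8.02 ± 2.21 TPM, against 21.9 ± 2.26 TPM in Col. In h2a.z the mean of LDOX was also below Col, at 15.7 ± 2.14 TPM, and that of DFR at 13.1 ± 1.21 TPM. GSTF12 averaged 31.5 ± 2.87 TPM in h2a.z, near Col. The rest of the pathway was mixed. Of 17 tested flavonoid genes outside the set, 6 passed as lower and 2 as higher in h3.3kd, and 5 as lower and 4 as higher in the double mutant (limma); over all genes tested 26.7% were lower and 9.12% higher in h3.3kd, and 30.7% and 20.3% in the double mutant, so these shares were not far from the background. CHS, the entry enzyme, was lower in h3.3kd at a log2 difference of -0.35 (SE 0.07, adjusted p = 0.00192) but higher in the double mutant at 0.51 (SE 0.07, adjusted p = 4.24e-05). TT8, the bHLH partner of PAP1, was lower in both, at -0.47 (SE 0.14) and -1.39 (SE 0.14).

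The glucosinolate members include MYB28 and MYB29, which are MYB activators of the aliphatic branch. MYB29 had 4.07, 2.83 and 2.83 TPM in h3.3kd, 1.02, 0.5 and 0.993 TPM in the double mutant, 21.8, 20.6 and 17.3 TPM in h2a.z, and 18, 15.3 and 15 TPM in Col. Its libraries separated fully, with the double mutant lowest, h3.3kd next, and h2a.z and Col far above. MYB28 had 39.3, 39.3 and 42.8 TPM in h3.3kd, 29.7, 24.9 and 21.7 TPM in the double mutant, 74.4, 78.8 and 72.7 TPM in h2a.z, and 79.8, 69 and 66.5 TPM in Col. Again double mutant, h3.3kd and the other 2 genotypes did not overlap. FMO GS-OX2, which modifies side chains, GTR2, a glucosinolate transporter, and IGMT4, a methyltransferase of indolic glucosinolates, had d of -1.20, -0.83 and -0.93 in h3.3kd plants and -1.25, -0.85 and -1.77 in the double mutant. IGMT4 has near-identical neighbours and its own level is uncertain.

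Other glucosinolate genes, among them aliphatic genes that these MYB factors are known to activate, were mostly higher in h3.3kd. Of 14 tested glucosinolate genes outside the set, 10 passed as higher and 1 as lower in h3.3kd, beside 9.12% and 26.7% over all genes. In the double mutant 10 passed as lower and 2 as higher, beside 30.7% and 20.3%. CYP79F2, an entry enzyme of the aliphatic core, had 19.4, 16.9 and 17.5 TPM in h3.3kd, 2.59, 1.2 and 2.16 TPM in the double mutant, 0.779, 0.729 and 0.687 TPM in h2a.z, and 5.74, 6.2 and 6.02 TPM in Col. It was highest in h3.3kd, where MYB28 and MYB29 were low, and the double mutant was below Col but above h2a.z. MAM3, of side-chain elongation, had a log2 difference of 2.17 (SE 0.18, adjusted p = 4.13e-07) in h3.3kd. CYP83A1, the next core enzyme, was lower in both, at -0.60 (SE 0.11) in h3.3kd plants and -4.90 (SE 0.11) in the double mutant.

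Hormone genes in the set belong to synthesis, inactivation and perception alike. Of the 5 expressed genes whose product is worded as gibberellin oxidase, numbers aside, 3 were members, beside 1.56% of all expressed nuclear genes. Oxidases annotated in other words are not in this count. GA2OX8, which inactivates gibberellin precursors, had 2.62, 2.22 and 1.64 TPM in h3.3kd, 2.03, 1.82 and 1.32 TPM in the double mutant, 12.9, 12.1 and 11.7 TPM in h2a.z, and 12.8, 11.1 and 12 TPM in Col. GA2OX2, which inactivates active gibberellin, had d of -1.42 in h3.3kd plants and -1.62 in the double mutant, and GA3OX2, which makes active gibberellin, had -0.94 in both. GID1B, a gibberellin receptor gene, averaged 16.4 ± 0.867 TPM in h3.3kd plants and 15.9 ± 0.234 TPM in the double mutant, against 31.9 ± 2.31 TPM in Col. Enzymes that make and that remove the hormone were thus low side by side. GASA1, a gibberellin-responsive peptide gene, had 253, 242 and 204 TPM in h3.3kd, 164, 237 and 186 TPM in the double mutant, 505, 538 and 716 TPM in h2a.z, and 469, 446 and 444 TPM in Col, with no overlap between the knockdown libraries and the others.

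In brassinosteroid synthesis, DWF4, a rate-limiting hydroxylase, averaged 13.3 ± 0.683 TPM in h3.3kd plants and 16.7 ± 2.77 TPM in the double mutant, against 34.2 ± 4.55 TPM in Col. ROT3, a hydroxylase of the same family, averaged 5.47 ± 0.443 and 6.23 ± 0.359 TPM, against 18 ± 0.521 TPM in Col. BEE3, a bHLH gene induced by brassinosteroid, had 12.1, 12 and 10.7 TPM in h3.3kd, 4.37, 3.66 and 4.74 TPM in the double mutant, 26.2, 21.7 and 18.2 TPM in h2a.z, and 25, 26.4 and 25.9 TPM in Col. Its double mutant libraries lay under 5 TPM and its h3.3kd libraries between 10 and 13 TPM. Auxin members were YUC6, an enzyme of auxin synthesis, DFL1, a GH3 enzyme that conjugates auxin, and PIN5, a carrier of the endoplasmic reticulum. Their d ran from -1.13 to -0.85 in h3.3kd and from -1.61 to -0.91 in the double mutant. IPT5, which makes cytokinin, had d of -1.29 and -1.95.

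Among genes of abscisic acid, cold and drought, RD22, a dehydration-induced gene, was the second most abundant member and had 314, 315 and 323 TPM in h3.3kd, 302, 360.0 and 358 TPM in the double mutant, 839, 860.0 and 979 TPM in h2a.z, and 652, 614 and 637 TPM in Col. The h2a.z libraries exceeded those of Col, with d = 0.49 just inside the band. KIN1, a cold-induced gene, had 13, 14.7 and 14.7 TPM in h3.3kd, 11, 9.09 and 7.58 TPM in the double mutant, 54.5, 50.4 and 61.2 TPM in h2a.z, and 37.1, 40.3 and 44.4 TPM in Col. The double mutant libraries of KIN1 lay below the h3.3kd libraries; KIN1 and its neighbour COR6.6 are nearly identical, so their split is uncertain. HAI1, a phosphatase that restrains abscisic acid signalling, PYL2, a receptor of the hormone, and MAPKKK17, a kinase it induces, had d of -1.29, -1.18 and -0.86 in h3.3kd plants and -1.31, -1.37 and -0.96 in the double mutant. CBF2, an activator of the cold response, had 2.47, 2.99 and 2.16 TPM in h3.3kd, 1.72, 2.54 and 2.23 TPM in the double mutant, 4.27, 4.36 and 3.8 TPM in h2a.z, and 4.43, 3.14 and 7.96 TPM in Col. Col replicate 3 was its highest library and the knockdown libraries lay just below the lowest of Col. The Col mean of CBF2, 5.17 TPM, was just above the minimum of 5 TPM and rests in part on replicate 3. NAC019, another stress activator, had d of -1.40 and -1.36. Its Col libraries were at 6.81, 5.63 and 13.3 TPM, with replicate 3 again the highest. Of 24 tested list genes outside the set, 13 passed as lower and 1 as higher in h3.3kd, and 15 as lower and 3 as higher in the double mutant. The background over all genes tested was 26.7% lower and 9.12% higher in h3.3kd, and 30.7% and 20.3% in the double mutant. COR6.6 was lower in both, at -0.73 (SE 0.11) in h3.3kd plants and -1.73 (SE 0.11) in the double mutant, and ABI1, a phosphatase of the pathway, at -0.59 (SE 0.10) and -1.05 (SE 0.10).

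Immune members spanned receptors, kinases and salicylic acid synthesis. NDR1, which resistance receptors at the membrane need, averaged 2.87 ± 0.208 TPM in h3.3kd plants and 3.22 ± 0.424 TPM in the double mutant, against 8.68 ± 0.806 TPM in Col. SOBIR1, a co-receptor of receptor-like proteins, averaged 18.2 ± 0.367 and 18.7 ± 2.43 TPM, against 37 ± 7.28 TPM in Col. CPK28, a kinase that restrains immune signalling, MPK5, a MAP kinase, ICS2, a minor isochorismate synthase, and HR4, a homologue of the resistance gene RPW8, had d between -1.27 and -0.91 in h3.3kd and between -1.61 and -0.91 in the double mutant. Of 14 expressed genes annotated as cysteine-rich receptor-like kinases, 3 were members, beside 1.56% of all expressed nuclear genes. CRK18 had 0.839, 0.902 and 1.26 TPM in h3.3kd and 3.53, 3.32 and 2.89 TPM in the double mutant. It had 9.47, 7.42 and 8.72 TPM in h2a.z, and 8.12, 8.09 and 8.11 TPM in Col. In that gene the double mutant libraries were all above the h3.3kd libraries; such kinases lie in clusters of similar genes, so single levels are uncertain. None of the 9 tested salicylic acid genes on a separate list was a member. Of them, 6 passed as lower in h3.3kd, beside 26.7% over all genes tested. In the double mutant 5 passed as lower and 2 as higher, beside 30.7% and 20.3%.

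Other defence products were low as well. KTI1, a trypsin inhibitor gene, had 41.8, 40.3 and 45 TPM in h3.3kd, 32.3, 45.4 and 38 TPM in the double mutant, 251, 279 and 326 TPM in h2a.z, and 221, 213 and 217 TPM in Col. The 6 knockdown libraries stayed under 46 TPM and the others above 210 TPM. UPI, another protease inhibitor, averaged 56.6 ± 4.12 TPM in h3.3kd plants and 35.2 ± 3.18 TPM in the double mutant, against 146 ± 8.24 TPM in Col. PRXCB, a peroxidase that produces the oxidative burst, averaged 32.9 ± 7.21 and 16.8 ± 0.436 TPM, against 63.3 ± 1.38 TPM in Col. Of the other 3 tested genes of the cluster that holds AZI1, EARLI1 was lower in h3.3kd, at -1.63 (SE 0.27). All 3 passed as lower in the double mutant, beside 30.7% over all genes tested. EARLI1 was no member since h2a.z was also low, with 1.65, 4.14 and 1.61 TPM in h2a.z, against 11.4, 16.2 and 17 TPM in Col.

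Epidermal regulators formed a small group. SPCH, the bHLH factor that starts the stomatal lineage, had 6.11, 5.06 and 6.32 TPM in h3.3kd, 4.91, 2.84 and 3.26 TPM in the double mutant, 9.2, 8.84 and 8.24 TPM in h2a.z, and 11.2, 11.7 and 11.5 TPM in Col. No knockdown library reached the lowest h2a.z or Col library. EPF2, the peptide that limits this lineage, averaged 4.47 ± 0.233 TPM in h3.3kd plants and 4.06 ± 0.72 TPM in the double mutant, against 9.26 ± 1.76 TPM in Col. TRY and TCL2, small MYB proteins that repress trichomes, had d of -0.83 and -1.01 in h3.3kd plants and -1.09 and -1.57 in the double mutant. Activators and inhibitors of cell fate were thus both low. Some markers of the epidermis were also lower: of 6 tested markers outside the set, 3 passed as lower in h3.3kd, beside 26.7% over all genes, and 5 as lower in the double mutant, beside 30.7% (limma). FAMA, of late guard cell fate, was at -0.63 (SE 0.09) in h3.3kd plants and -0.83 (SE 0.09) in the double mutant. ATML1, which defines the epidermis, was not called in either, at -0.09 (SE 0.06) and -0.12 (SE 0.06). The 6 markers summed to 140 to 141 TPM in h3.3kd, 118 to 131 TPM in the double mutant and 168 to 173 TPM in h2a.z, against 160.02 to 179 TPM in Col, and no marker was at 0 in any group. The part of cell composition in these levels was not tested.

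SWEET11, a sucrose exporter of phloem parenchyma, was both a member and a vascular marker, with 40.7, 41.1 and 45.1 TPM in h3.3kd, 57.6, 51.7 and 40.9 TPM in the double mutant, 160.3, 176 and 176 TPM in h2a.z, and 157, 142 and 128 TPM in Col. The knockdown libraries were all below 60 TPM and the others all above 125 TPM. The other 4 vascular markers summed to 58.9 to 64.5 TPM in h3.3kd, 46.7 to 66.2 TPM in the double mutant and 68.9 to 71.9 TPM in h2a.z, against 50.8 to 60.7 TPM in Col. Of these 4, SUC2, of phloem companion cells, was higher in h3.3kd at 0.54 (SE 0.12), and APL, of phloem identity, was lower at -0.40 (SE 0.12). Summed markers of leaf mesophyll were higher in the knockdowns, at 85089 to 90498 TPM in h3.3kd and 77787 to 89936 TPM in the double mutant, with 58667 to 68394 TPM in h2a.z, against 63976 to 71860 TPM in Col. The 13 root markers summed to 197 to 217 TPM in h3.3kd, 228 to 254 TPM in the double mutant and 283 to 333 TPM in h2a.z, against 173 to 204 TPM in Col. Seed markers summed to 50.4 to 78.2 TPM in h3.3kd, 80.4 to 234 TPM in the double mutant, with sums of 11.1, 11.2 and 239.6 TPM in h2a.z, against 9.44 to 17.7 TPM in Col. In h2a.z replicate 3 alone made the high sum, and the other h2a.z libraries were at the Col level. Their part in the levels of the members was not tested.

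Other carriers in the set move amino acids, metals and phosphate. UMAMIT31, of an amino acid exporter family, had 3.82, 4.41 and 5.49 TPM in h3.3kd, 2.84, 1.53 and 2.34 TPM in the double mutant, 16.6, 19.3 and 19.9 TPM in h2a.z, and 21.8, 20.4 and 17.4 TPM in Col, with every double mutant library below every h3.3kd library. UMAMIT47 of the same family, PHT1;4, a phosphate uptake carrier, and PUP1, a purine permease, had d of -1.17, -0.85 and -1.53 in h3.3kd plants and -1.71, -1.29 and -1.53 in the double mutant. Of 28 expressed genes annotated as MATE efflux proteins, 3 were members, beside 1.56% of all expressed nuclear genes. Their d ran from -1.02 to -0.91 in h3.3kd. NAS3 and NAS4, which make the metal chelator nicotianamine, were members among 23 tested iron genes. NAS4 had 60.2, 52.6 and 61.8 TPM in h3.3kd, 56.6, 53.2 and 53.8 TPM in the double mutant, 96.8, 103 and 98.6 TPM in h2a.z, and 128, 129 and 140.4 TPM in Col; h2a.z lay between the knockdowns and Col. Of the other 21 iron genes, 16 passed as lower and 2 as higher in h3.3kd, and 15 as lower and 2 as higher in the double mutant. Shares over all genes tested were 26.7% lower and 9.12% higher in h3.3kd, and 30.7% and 20.3% in the double mutant. IMA3, a peptide gene of the iron response outside the set, was low in all 3 mutant genotypes, with 0.795, 0.669 and 1.27 TPM in h3.3kd, 1.9, 1.3 and 1.8 TPM in the double mutant, then 1.32, 1.48 and 1.23 TPM in h2a.z, against 6.79, 7.1 and 7.74 TPM in Col.

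The most abundant member was LP1, a lipid transfer protein gene of the epidermis, with 1138, 1100.3 and 1151 TPM in h3.3kd, 1095, 1293 and 1272 TPM in the double mutant, 2416, 2210.2 and 2361 TPM in h2a.z, and 2295, 2042 and 2180.3 TPM in Col. It was near the limit, at d = -0.94 in h3.3kd plants and -0.83 in the double mutant, and its knockdown libraries did not overlap the others. AT3G05730, which encodes a defensin-like protein, had 193, 230.5 and 250.1 TPM in h3.3kd, 119, 99.8 and 90.9 TPM in the double mutant, 489.7, 417 and 427 TPM in h2a.z, and 497, 522 and 511 TPM in Col. XTH24, an enzyme that remodels xyloglucan in the cell wall, averaged 136 ± 11.3 TPM in h3.3kd plants and 136 ± 11.4 TPM in the double mutant, against 321 ± 16 TPM in Col. Among regulators of leaf form, TCP4, which promotes differentiation, had 56.7, 53.5 and 55.3 TPM in h3.3kd, 55.1, 50.3 and 54.7 TPM in the double mutant, 75.5, 70.9 and 71.3 TPM in h2a.z, and 100.1, 101 and 101 TPM in Col. Here h2a.z was between the knockdowns and Col, at d = -0.47. WOX1, which drives blade outgrowth, had d of -0.98 in h3.3kd plants and -1.15 in the double mutant. NAM, a NAC factor gene whose annotation names no role in leaf form, had -1.28 and -1.20. Other transcription factor genes in the set were TINY2, of the DREB family, BBX30, a B-box microprotein that acts in light signalling, and NAC041, with d between -1.10 and -0.96 in h3.3kd. Lists with no member included heat shock with 10 tested genes, the circadian clock with 11, repressors of flowering with 6, H3.1 histones with 5 and H3 chaperones with 8.

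**Figure D4:**
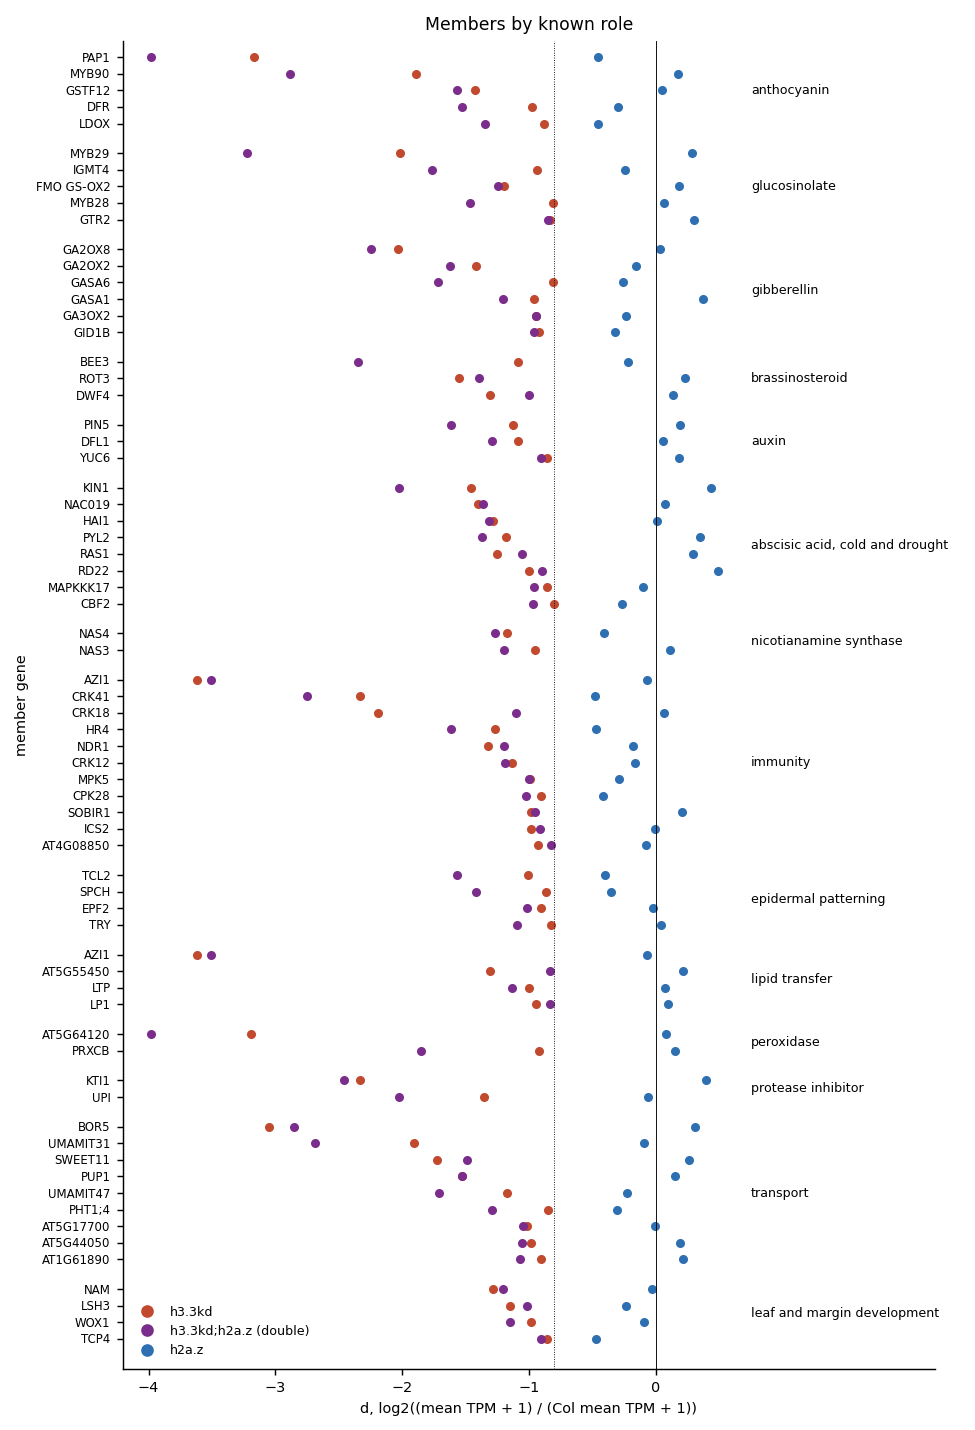
Value of d (horizontal axis, log2 scale against Col) in h3.3kd, the double mutant and h2a.z for members with a known role. Members are grouped by that role down the page. AZI1 stands in 2 groups, and the dotted line marks -0.8. NAM is placed with leaf and margin development, although its annotation names only a NAC domain. Points of h3.3kd and the double mutant lie left of the line by the rule and h2a.z points lie around 0; anthocyanin and glucosinolate genes mostly have the double mutant farther left.

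The rule did not use the difference between the double mutant and h3.3kd itself, although it bounds both genotypes. In limma, 60 of 225 members (26.7%) were lower and 11 (4.89%) higher in the double mutant than in h3.3kd, beside 13.8% lower and 20.9% higher over all genes tested. Their median log2 difference was -0.13, beside 0.03 over all genes. The balance of directions depended on the limits. Without the limit on the double mutant, 298 genes qualified, of which 60 were lower and 53 higher, with a median of -0.03. Without the limit on h3.3kd, 532 genes qualified, of which 285 were lower and 11 higher. The excess of lower members cannot be told apart from the rule. In 112 members the 2 values of d were within 0.2 of each other.

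The largest further reduction was in AT1G13650, of an uncharacterized protein, which had 3.36, 2.04 and 3.11 TPM in the double mutant, against 11.3, 10.1 and 10.3 TPM in h3.3kd, a log2 difference of -1.61 (SE 0.13, adjusted p = 5.42e-07). In h2a.z it was higher, at 44.4, 41 and 36.1 TPM, with 34, 25.9 and 26.1 TPM in Col. BEE3, whose libraries are given above, differed by -1.26 (SE 0.11), and MYB29 by -1.21 (SE 0.14). PCB2, the reductase that makes monovinyl chlorophyll precursors, had 33.6, 17.1 and 27.3 TPM in the double mutant, against 52.8, 61.6 and 65.9 TPM in h3.3kd, a difference of -1.22 (SE 0.16, adjusted p = 4.56e-05). AT3G05730 differed by -1.11 (SE 0.10). In all 5 the double mutant libraries lay entirely below those of h3.3kd. Among pigment and glucosinolate members, 7 of 10 were called lower in the double mutant, by -0.99 in MYB90, -0.82 in PAP1 and -0.83 in IGMT4. The shares called lower were 26.7% over all members and 13.8% over all genes tested. The 11 immune members held 1 called gene, CRK18, which was higher, beside 4.89% of all members and 20.9% of all genes. These groups were formed after values were seen, and the contrast between them was not tested.

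The largest recovery was in AT2G25510, of an uncharacterized protein, which had 16, 13.4 and 11.8 TPM in the double mutant, against 6.37, 5.49 and 4.23 TPM in h3.3kd, a log2 difference of 1.22 (SE 0.14, adjusted p = 1.34e-05). It stayed far below h2a.z, at 79.2, 70.6 and 56.4 TPM, and Col, at 43.2, 51 and 52.1 TPM. CRK18 differed by 1.09 (SE 0.12, adjusted p = 6.86e-06). AT5G24210, of an alpha/beta-hydrolase, had 3.89, 4.6 and 2.77 TPM in the double mutant, against 1.5, 1.13 and 1.33 TPM in h3.3kd, a difference of 1.02 (SE 0.14). AT4G27300, of a lectin receptor kinase family, and AT3G54830, of an amino acid transporter family, differed by 0.64 (SE 0.11) and 0.51 (SE 0.08). In each of these 5 the libraries of the genotypes did not overlap, and all 10 named differences were called under every alternative setting run.

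**Figure D5:**
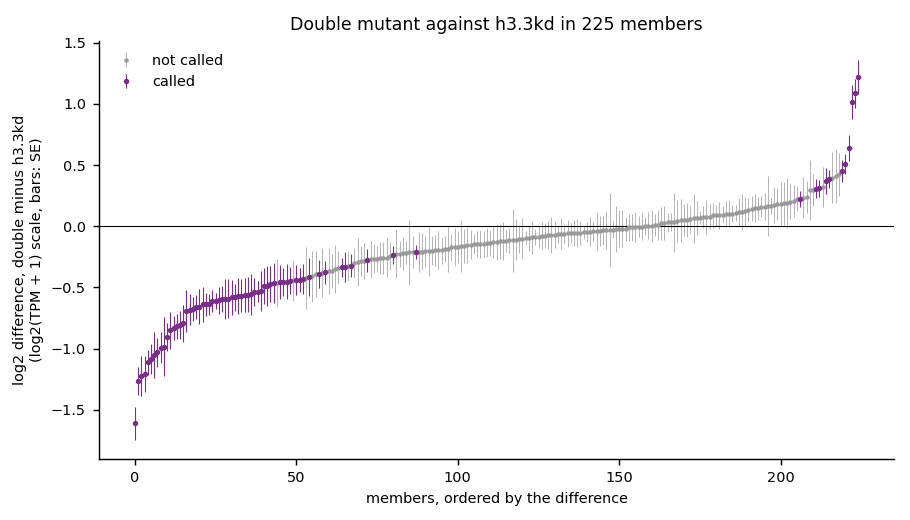
Log2 difference between the double mutant and h3.3kd (vertical axis, log2(TPM + 1) scale, bars show the SE) for the 225 members in order of the difference (horizontal axis), with called members in colour. Values run from -1.61 to 1.22, and 60 called members are below 0 and 11 above.

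The interaction asks whether the effect of the knockdown differs between plants with and without the h2a.z mutation. It was called negative, meaning a larger reduction in the h2a.z background, in 37 members and called positive in 10 of the 225. Over all genes 10.1% were called negative and 7.39% positive. The median over members was -0.07, beside -0.01 over all genes, and became 0.02 without the limit on the double mutant. Without that limit, 37 of 298 genes were called negative and 27 positive. Without the limit on h3.3kd, 134 of 532 were called negative and 10 positive. The excess of negative members cannot be told apart from the rule. AT1G13650 led with -2.10 (SE 0.19, adjusted p = 4.69e-06), followed by MYB29 at -1.49 (SE 0.20, adjusted p = 0.000234) and PCB2 at -1.27 (SE 0.23, adjusted p = 0.00177). RD22 was among the called genes, at -0.39 (SE 0.10), with h2a.z above Col. TCP4 was called in the other direction, at 0.42 (SE 0.08), with h2a.z below Col. HTA9 was higher in the double mutant than in h2a.z, so its level differed between the genotypes that carry the h2a.z mutation; the part of this in the interaction was not tested.

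The members lay on all chromosomes, at 60, 35, 39, 37 and 54 genes on chromosomes 1 to 5, or 1.35% to 1.68% of the expressed genes of each. Some members were direct neighbours, and no number expected without clustering is given to set beside the pairs. In 6 pairs both genes were members, namely BGLU1 with TLL1, NAM with NAC019, AT4G08850 with ARGAH2, AT4G33040 with EDA39, RD22 with YUC6 and TRY with SPCH. All but TRY and SPCH lie on the same strand. In the pair AT4G33040 and EDA39, of a thioredoxin-like and a calmodulin-binding protein, the first had 8.99, 9.49 and 9.49 TPM in h3.3kd, against 38.1, 33.1 and 35.6 TPM in Col, and the second 10.4, 10.4 and 11.4 TPM, against 30.2, 30.2 and 32.6 TPM in Col. The 283 expressed neighbours that were not members had a median d of -0.13 in h3.3kd plants and -0.08 in the double mutant, close to -0.12 and -0.08 over all expressed nuclear genes. For overlapping annotation no share over all genes is given. The annotated span of 38 members, BOR5, SOBIR1 and ROT3 among them, overlaps another gene, on the opposite strand in 34. The labels do not say whether counting used strand, so reads of these genes and their partners cannot be told apart.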

How the data were processed

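The authors deposited 1 table of TPM values, 1 column for each of the 12 libraries, each summing to 1000000 over 23893 listed genes. Per the submitters' processing notes, the build was TAIR10 and the tools were HTSeq 0.11.2, HISAT2 2.1.10, DESeq2 1.26.0 and fastp 0.20.1, with no roles stated. How TPM were made is not stated, and a rise of abundant transcripts lowers all others. Symbols, products, gene structure and promoters came from RefSeq on TAIR10.1; all 23739 nuclear genes matched. No coordinates are given, since the builds differ by name. Counts of genes annotated alike, such as gibberellin oxidases, cover only identical product wording, numbers aside. Only wordings with at least 3 members were counted, which favours high shares. Among these wordings, protein kinase superfamily held 3 members of 186 expressed genes, RING/U-box 3 of 141 and alpha/beta-hydrolases 4 of 122.

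Tests used limma 3.58.1 (R 4.3.3) on log2(TPM + 1) for the 18851 genes averaging at least 1 TPM, in 1 model of 4 genotypes with a mean-variance trend, two-sided, with Benjamini-Hochberg adjustment over all genes. Called means an adjusted p below 0.05; SD values have n = 3. Differences on this scale understate changes of low genes. The script was tested on simulated data.

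Members, gene lists and role groups were chosen with earlier results of these data known. Genes are named by rank of d, Col level, difference between knockdowns, list, product and gene order; role groups, and genes of other lists or named for a role, were chosen after their values were seen. Alternatives were rescaled TPM, a pseudocount of 0.1, no filter, no trend, a replicate term, each library left out, and other limits of the rule.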

Additional observations from a re-analysis of the deposited data

Results flagged for a closer look

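The effect of the H3.3 knockdown differed between the h2a.z and Col backgrounds in 47 of 225 members (interaction, limma, adjusted p below 0.05). It was called negative in 37 and positive in 10, beside 10.1% and 7.39% over all genes tested. Named here are the 5 most negative and 5 most positive called members. The reduction was larger in the h2a.z background in AT1G13650, with an interaction of -2.10 on the log2 scale, MYB29 with -1.49, PCB2 with -1.27, MYB90 with -1.16 and CYP94B1, which oxidises the active jasmonate, with -1.12. It was smaller there in CRK18 with 1.03, AT2G25510 with 0.74, AT4G27300 with 0.58, cPT4, a prenyltransferase gene, with 0.55 and GER2, a germin-like gene, with 0.48. AT2G25510 was no longer called without h3.3kd replicate 3 (adjusted p = 0.0521), and its adjusted p ran from 0.0114 to that value over the alternatives. GER2 lost its call in 9 of the 12 fits with a library left out, with adjusted p between 0.0151 and 0.0986 over the alternatives. The other 8 were called under each alternative run.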

How the results depend on the processing

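The set depends on its limits: 124 genes met d of at most -1 in both knockdown genotypes and 455 met -0.6, beside 225 at -0.8. With each of the 12 libraries left out in turn the rule found 214 to 235 genes, of which 192 to 221 were among the 225; 135 members were found every time and 90 were lost at least once. Rescaled TPM gave 160 genes (149 shared), group medians 224 (191 shared) and a pseudocount of 0.1 gave 267 (215 shared). The count called between the double mutant and h3.3kd, 71 of 225, ran from 62 to 74 with a library left out, and the median difference from -0.16 to -0.07. Added after seeing the data, sets with no limit on the double mutant or on h3.3kd gave 113 and 296 calls, the second with a median of -0.36. For the interaction, left-out libraries gave 32 to 53 calls and medians from -0.11 to -0.03; with no limit on the double mutant the median was 0.0206, and with none on h3.3kd it was -0.25 with 144 calls. These changes come with the choice of genes. Labels give the genotypes the same replicate numbers, but same-numbered libraries did not deviate together: over 18 pairs the correlation of their deviations was -0.17 to 0.0767, and 1 library correlated best with its own number. With the replicate block 71 members were called between the double mutant and h3.3kd and 46 for the interaction. Depth was lowest in h2a.z replicate 1, which limits values of low genes there.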
